A study of Macaca mulatta with 24 samples.

Results

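The genes described here are the macaque airway's xenobiotic phase I and phase II enzymes: cytochromes P450 (CYP), aldehyde dehydrogenases (ALDH), aldo-keto reductases (AKR), glutathione S-transferases (GST), UDP-glucuronosyltransferases (UGT) and sulfotransferases (SULT). Members were chosen by name and level: a family symbol and a normalized count of at least 10 in at least 4 of the 24 libraries. Whether each member's product acts as an enzyme on foreign compounds was not checked. Of 35432 rows in the table, 94 carried a family symbol. Left out by the rule were 7 of them (CYP1A1, CYP1B1, CYP2S1, CYP26A1, CYP26B1, ALDH3A1 and AKR1C1, 6 of which passed the filter), which belong to the aryl hydrocarbon receptor, NRF2 and retinoic acid responses. A further 30 were under the filter, and 57 were members, among 14062 genes tested in all. The members were 14 of 21 rows in CYP families 1 to 4, 4 of 17 in the other CYP families, 12 of 15 ALDH, 8 of 9 AKR, 12 of 12 GST, 4 of 5 UGT and 3 of 8 SULT rows. At the edge of the filter, SULT1C4 reached 10 in 4 libraries, all of animal S1 (highest 14.7). CYP24A1, which was left outside, reached 10 in 3 (highest 43.7). CYP1A2, the hepatic partner of CYP1A1, was at 0 in every library, and no row carried the symbols CYP2F1, AKR1C3, GSTM1 or UGT1A6.

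Phase I enzymes oxidise, reduce or hydrolyse foreign compounds, and phase II enzymes attach glutathione, glucuronic acid or sulfate to the products, which makes them more soluble and ready for export. P450s insert oxygen using electrons from cytochrome P450 reductase, ALDHs turn aldehydes into acids, and AKRs reduce aldehydes and ketones to alcohols with NADPH. In the airway many of these enzymes act in secretory and ciliated cells, and wood smoke carries many of their substrates, among them polycyclic aromatic hydrocarbons, acrolein and other reactive aldehydes.

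Tracheobronchial epithelial cells of 4 adult female rhesus macaques (S1 to S4, aged 5463, 2930, 2238 and 1128 days and weighing 5.59, 7.17, 4.56 and 3.18 kg) were differentiated on Transwell inserts at an air-liquid interface, in medium to which retinoic acid had been added. Cultures received filtered air or diluted whole wood smoke in sessions of 6 hours a day. They were collected after 1 day, after 5 consecutive days, or after 5 days and 7 further days of recovery, which gives 6 groups with 1 library per animal and 4 animals in each. All 6 groups thus share the medium and its retinoic acid, and each animal supplied a single cell isolate, so age, weight and animal cannot be told apart.

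Values are normalized counts per gene and library. Library totals ranged from 11.8 to 15.2 M, approximate depths from 9.46 to 17.4 M reads, and the members summed to 0.505 to 1.06% of a library's total. The cultures carried the markers of airway epithelium: 10 of 10 basal, 13 of 13 ciliated and 16 of 17 secretory markers with a row were among the genes tested. Summed secretory markers ranged from 28516 to 317457 and summed ciliated markers from 5620 to 41052. Markers of other lineages were near the floor for the leukocyte gene PTPRC, at most 1.69 in any library, and for the endothelial gene CDH5, below 1 in every library. Over the whole lists, 3 of 9 immune markers were tested and their sum ranged from 2446 to 5378, and 4 of 5 endothelial markers were tested, with a sum of 1488 to 20706. In bulk RNA, fewer cells of a type and less RNA per cell cannot be told apart. The air library of S1 at 5 days was unlike the rest: its median correlation with the other libraries was 0.860, against 0.931 to 0.956 for the other 23, and it held the highest secretory marker sum. Results are therefore given with all libraries and without that library, called the S1 air library of 5 days below. The fit was limma on log2(normalized count + 1) with a term for each animal, a gene was called where its Benjamini-Hochberg adjusted p over all 14062 genes was under 0.05, and every error on a log2 difference is a standard error.

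Smoke moved few of these enzymes past the threshold. At 1 day 0 of 57 members were called, beside 11 genes in all (0.0782%), and at 5 days 2 were called, 1 higher and 1 lower, beside 1.69% of all genes (0.889% higher and 0.796% lower). After recovery 1 member was called, higher, beside 3.41% of all genes (1.14% higher). At 1 day 6 members had an unadjusted p under 0.05, 10.5% of members against 4.51% of all genes. The median smoke difference of the members was 0.01 at 1 day, 0.04 at 5 days and 0.13 after recovery on the log2 scale, and that of all genes 0.00, 0.01 and 0.01. In all 4 animals alike, 15 members were higher and 6 lower in smoke at 1 day, against 16.2% and 15.2% of all genes. At 5 days 6 were higher and 6 lower, against 9.54% and 9.91%, and after recovery 16 were higher and 3 lower, against 18.9% and 19.4%. The direction at 1 day depended on the scaling: 31 of 57 members had a positive fitted difference, and 22 with library totals as the scaling, when their median was −0.07 and that of all genes −0.08. At 5 days these counts were 34 and 38, and after recovery 40 and 41. The 3 smoke comparisons use different libraries but share the fitted spread and the animal terms. Each also shares its air libraries with the comparisons of air over time given below.

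The number of calls followed the fit. Without the S1 air library of 5 days, 4 members were called at 1 day, 6 at 5 days and 10 after recovery, with a background of 0.96, 6.26 and 18.8% of all genes. Fitted from the 8 libraries of each time alone, 12 members were called at 1 day (background 9.11%), 0 at 5 days (background 0%) and 11 after recovery, 10 of them higher (background 18.8%, 8.93% higher). Without the animal term no member was called for smoke at 1 day, 5 days or recovery, beside 0.0284, 0.0711 and 0.242% of all genes. In the fits of 8 libraries the 12 members at 1 day were 21.1% of the 57, and the 10 called higher after recovery 17.5%. By contrast, CYP1B1, a classical aryl hydrocarbon receptor target that the rule leaves out, differed by 2.82 at 1 day and 2.65 at 5 days on the log2 scale and by 0.07 after recovery.

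**Figure D1:**
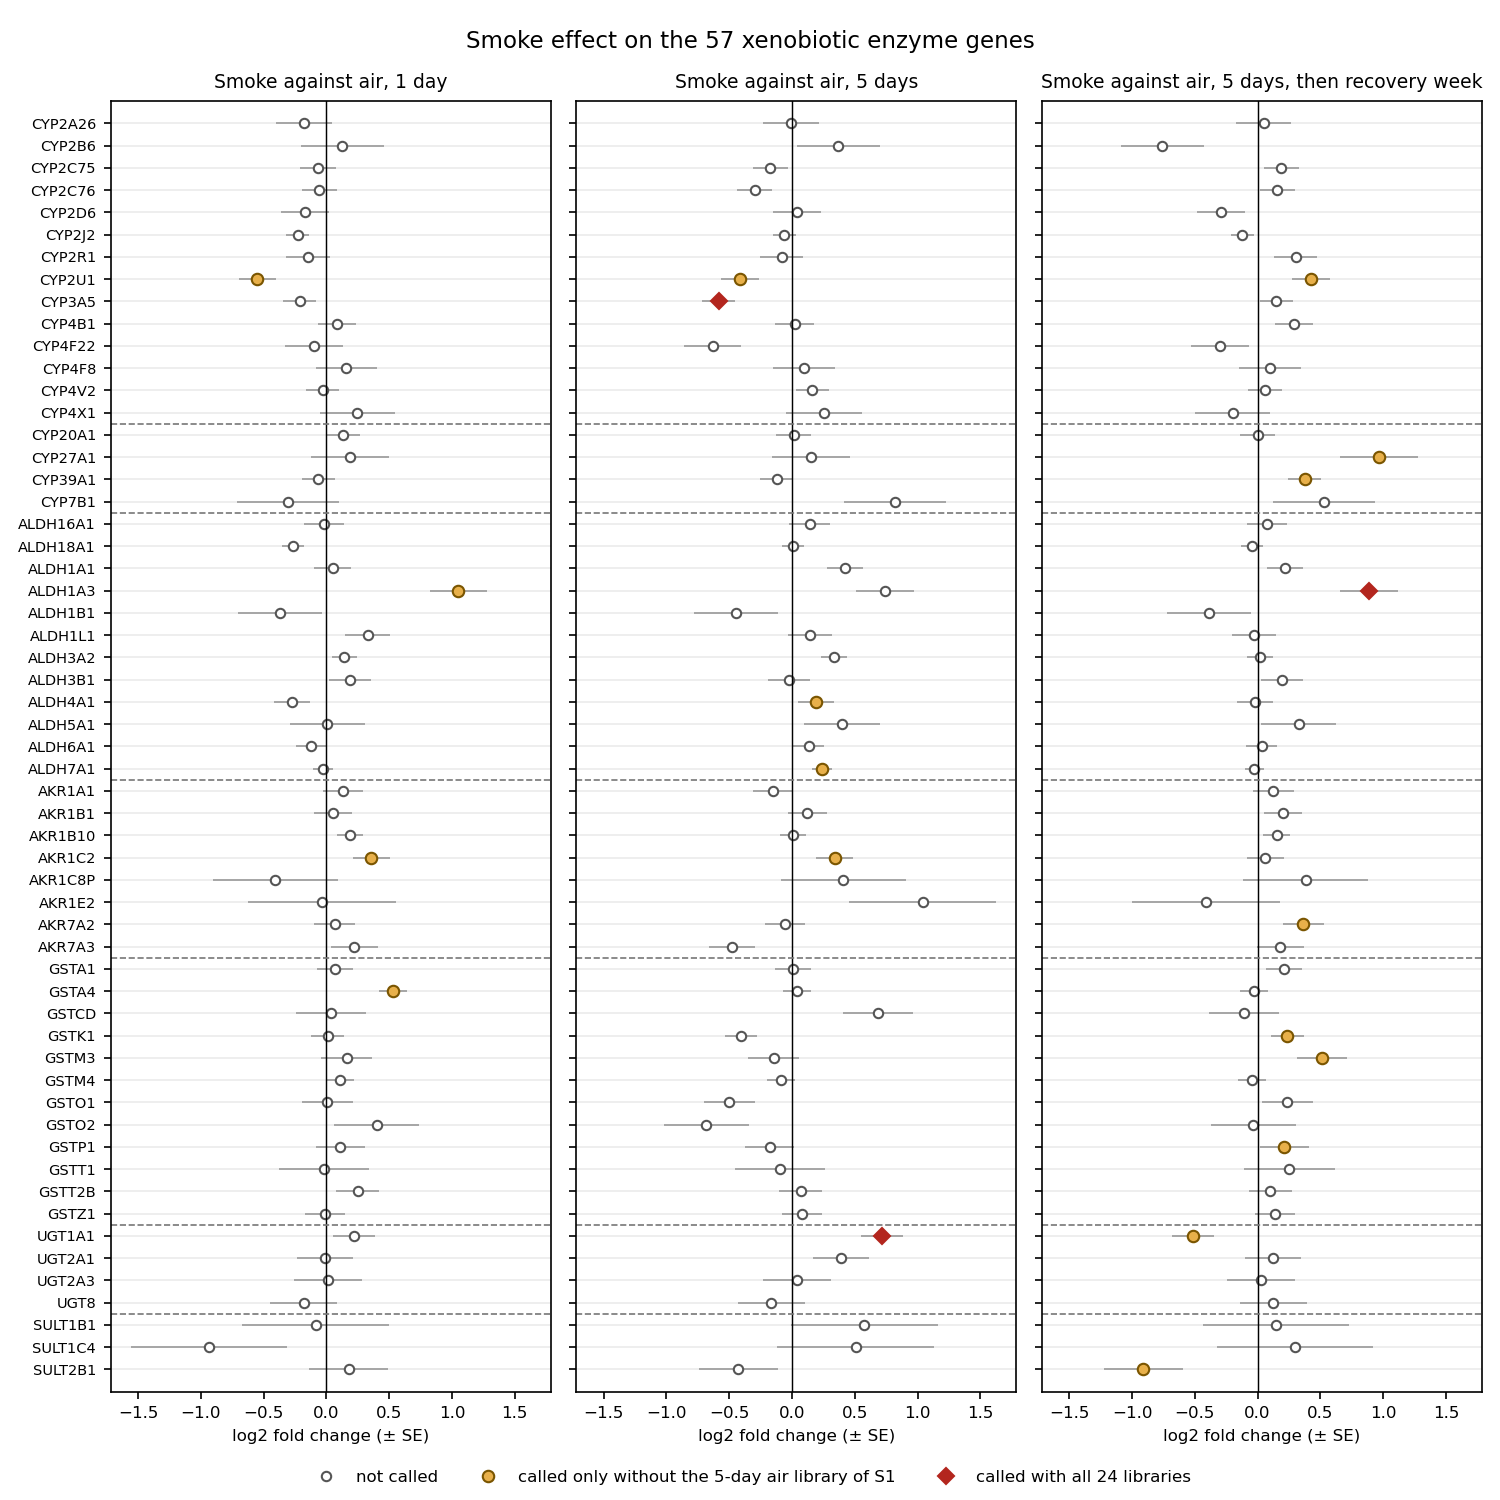
Fitted log2 difference between smoke and air (point, with its standard error as a bar) for each of the 57 members at 1 day, at 5 days and after the recovery week, grouped by enzyme family. Red diamonds mark the 3 calls made with all 24 libraries (CYP3A5 and UGT1A1 at 5 days, ALDH1A3 after recovery), and filled yellow circles members not called with all libraries but called when the S1 air library of 5 days is left out.

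Among the aldehyde dehydrogenases, ALDH1A3 had the clearest smoke difference. It oxidises retinal to retinoic acid, the ligand of the retinoic acid receptors, and also clears other aldehydes. At 1 day its normalized counts were 4095, 4155, 1769 and 1713 in air (S1 to S4) and 9419, 7646, 4196 and 3144 in smoke. At 5 days they were 1169, 3619.9, 1346 and 1516 in air and 3622, 6309, 1493 and 1975 in smoke. After recovery they were 5959, 7133, 3309.6 and 2917 in air and 9942, 14634, 6326 and 5233 in smoke. Every animal was higher in smoke at each of the 3 times, although the groups overlapped because S1 and S2 carried more than S3 and S4 in most groups. The log2 difference was 1.05 ± 0.23 at 1 day (adjusted p = 0.123), 0.74 ± 0.23 at 5 days (adjusted p = 0.0967) and 0.89 ± 0.23 after recovery (adjusted p = 0.037). The last was 1.85-fold higher in smoke. Leaving out the S1 air library of 5 days gave adjusted p = 0.000259, 0.121 and 0.000229 at the 3 times, and a 5-day difference of 0.40. The recovery call was lost on leaving out any 1 of the 8 recovery libraries, at adjusted p up to 0.125, with library totals as the scaling (adjusted p = 0.0568), and without the animal term (adjusted p = 0.676). Averaged over 1 day and 5 days, ALDH1A3 was higher in smoke by 0.90 ± 0.16 (adjusted p = 0.0104). That call stood on leaving out any 1 of the 24 libraries. It was lost on leaving out S2, S3 or S4 (adjusted p up to 0.148) and without the animal term (adjusted p = 0.699). ALDH1A3 was 1 of 3 members called for that average, beside 0.91% of all genes. Without the S1 air library of 5 days 9 were called, beside 8.16%, and without the animal term 0, beside 0.0853%.

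The remaining ALDH genes differed less. After recovery the basal markers were also lower in smoke, 5 of 10 called with a list median of −0.78, while 0 of 13 ciliated and 0 of 16 secretory markers were called; the part of these shifts in the ALDH1A3 result was not tested. The retinoic acid-degrading CYP26A1, left out by the rule, was lower in smoke after recovery, with a difference of −1.76 on the log2 scale (adjusted p = 0.00016). It was also lower in smoke at 5 days, at −1.05 (adjusted p = 0.0115), while its 1-day difference of 0.31 was not called. ALDH1A1, another retinal dehydrogenase, read 23192, 15149, 39012 and 26092 in air and 39776, 18305, 54975 and 28804 in smoke at 5 days, higher in smoke in each animal, with a difference of 0.42 ± 0.15 that was not called (adjusted p = 0.133). Its differences at 1 day and after recovery were 0.05 ± 0.15 and 0.22 ± 0.15. ALDH3A2, a microsomal fatty aldehyde dehydrogenase, differed by 0.33 ± 0.10 at 5 days (adjusted p = 0.0901), and by 0.21 without the S1 air library of 5 days. ALDH7A1, which handles lysine breakdown and lipid aldehydes, differed by 0.24 ± 0.08 at 5 days and was called without the S1 air library of 5 days (adjusted p = 0.0204) or with library totals as the scaling (adjusted p = 0.0392). ALDH4A1 was the sixth member called at 5 days without that library, at 0.38; it and ALDH7A1 were picked out after their values had been seen.

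Among the P450s, CYP3A5, a broad-specificity drug and steroid hydroxylase known as the main CYP3A form of human airway, was lower in smoke than in air at 5 days. Its normalized counts at 5 days were 1239, 487, 745 and 969 in air and 859, 345, 461 and 628 in smoke. At 1 day they were 541, 290.0, 284 and 341 in air and 496, 263, 219 and 294 in smoke, and after recovery 725, 283, 367 and 419.7 and 854, 277, 440.5 and 456. Smoke was lower in 4 of 4 animals at 5 days, with S1 the highest and S2 the lowest in both groups, and it was lower by less at 1 day. From 1 day to 5 days CYP3A5 rose in each animal in air and in smoke alike. The 5-day difference was −0.58 ± 0.13 (adjusted p = 0.0303), and −0.63 without the S1 air library of 5 days (adjusted p = 0.00828). The 1-day and recovery differences were −0.21 ± 0.13 and 0.15 ± 0.13 (adjusted p = 1 and 0.622). The 5-day call was lost without the 5-day air library of S3 or S4 or the 5-day smoke library of S1, S2 or S3 (adjusted p up to 0.103), without the animal term (adjusted p = 0.641) and with library totals as the scaling (adjusted p = 0.0679). Averaged over 1 day and 5 days, CYP3A5 was lower in smoke by 0.40 ± 0.09 (adjusted p = 0.0475). That call stood in 5 of 24 single-library omissions.

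CYP2U1, a P450 that hydroxylates long-chain fatty acids, was lower in smoke during exposure and higher after it. At 1 day it read 308, 509, 596 and 491 in air and 184, 361, 468 and 319 in smoke. At 5 days it read 196, 601, 648 and 564 in air and 198, 462, 461 and 324 in smoke. After recovery it read 186, 305, 349 and 359 in air and 279.8, 402, 453 and 456 in smoke. Every animal was lower in smoke at 1 day and every animal higher after recovery, while at 5 days S1 alone was level and the other 3 were lower. The differences were −0.55 ± 0.15, −0.41 ± 0.15 and 0.43 ± 0.15, none called with all libraries (adjusted p = 0.386, 0.152 and 0.127) and all called without the S1 air library of 5 days (adjusted p = 0.00899, 0.00415 and 0.00733). Averaged over 1 day and 5 days, CYP2U1 was lower in smoke by 0.48 ± 0.11 with all libraries (adjusted p = 0.0334). That call stood in 11 of 24 single-library omissions (adjusted p up to 0.0934). Without the animal term the adjusted p of CYP2U1 was 0.986.

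No other P450 was called for smoke with all libraries. CYP4B1, the lung-type P450 known for activating 4-ipomeanol and arylamines, differed by 0.08 ± 0.15, 0.02 ± 0.15 and 0.29 ± 0.15 at the 3 times, with the last difference positive in 4 of 4 animals and uncalled (adjusted p = 0.347). CYP27A1, the mitochondrial sterol 27-hydroxylase, read 10.1, 15.5, 16.1 and 9.52 in air and 25.1, 27.2, 30.6 and 19.6 in smoke after recovery, groups that did not overlap, at levels close to the filter. Its difference of 0.96 ± 0.31 was called without the S1 air library of 5 days (adjusted p = 0.0261) and not with it (adjusted p = 0.0968). The oxysterol hydroxylase CYP39A1, singled out after its values were seen, differed by 0.37 ± 0.13 after recovery, higher in 4 of 4 animals and called without that library (adjusted p = 0.0301), not with it. CYP7B1, another oxysterol hydroxylase, had a 5-day difference of 0.82 ± 0.41 that rested on S1, at 6.42, 15.8, 52.7 and 50.2 in air and 55.9, 30.0, 50.7 and 35.4 in smoke; without the S1 air library of 5 days it was 0.15. The 9 members of CYP families 1 to 4 with a positive recovery difference ranged up to 0.43, and the lowest was CYP2B6 at −0.76.

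No aldo-keto reductase was called for smoke with all libraries. AKR1C2, a hydroxysteroid dehydrogenase that also reduces carbonyls and quinones, read 552, 314, 458 and 445 in air and 745, 397, 629 and 513 in smoke at 1 day, higher in each animal. At 5 days it read 667, 246, 306 and 263 in air and 567, 331, 446 and 408 in smoke, so that 3 animals were higher in smoke and S1, whose air library stood apart, was lower. The differences of 0.36 ± 0.15 and 0.34 ± 0.15 were not called with all libraries and were called without that one, when the 5-day value was 0.56 (adjusted p = 0.0478 at 1 day and 0.00169 at 5 days). AKR1B10, an efficient reductase of retinal and of lipid aldehydes, differed by 0.18 ± 0.10, 0.01 ± 0.10 and 0.15 ± 0.10 at the 3 times. AKR7A2, which reduces succinic semialdehyde and aflatoxin dialdehyde, read 348, 522, 727 and 502 in air and 452, 668, 875 and 694 in smoke after recovery, higher in each animal. That difference of 0.37 ± 0.16 was called without the S1 air library of 5 days (adjusted p = 0.00137) and not with it (adjusted p = 0.24). AKR7A3, its close relative, differed by −0.48 ± 0.19 at 5 days, lower in smoke in each animal and uncalled (adjusted p = 0.183).

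Of the 12 members with a GST symbol none was called for smoke with all libraries. GSTA4, which conjugates 4-hydroxynonenal from oxidised lipids, read 527, 483, 623 and 599 in air and 861, 737, 862 and 756 in smoke at 1 day. The 4 smoke libraries all lay above the 4 air libraries, and by 5 days the groups overlapped, at 771, 568, 763 and 836 in air and 749, 613, 712 and 951 in smoke. Its 1-day difference was 0.53 ± 0.11 (adjusted p = 0.12), the smallest p of any member at that time, and it was called without the S1 air library of 5 days (adjusted p = 0.0105) and from the 8 libraries of that time alone (adjusted p = 0.000267). At 5 days and after recovery the difference was 0.04 ± 0.11 and −0.03 ± 0.11. The mu-class GSTM3 differed by 0.51 ± 0.20 after recovery, higher in 4 of 4 animals and called without the S1 air library of 5 days (adjusted p = 0.0267), not with it. The mitochondrial and peroxisomal GSTK1 was lower in smoke in each animal at 5 days, with a difference of −0.41 ± 0.13 (adjusted p = 0.106; −0.20 without the S1 air library of 5 days), and higher in 3 of 4 after recovery, by 0.24 ± 0.13. GSTP1, the classical airway transferase for diol epoxides and acrolein, differed by 0.11 ± 0.20, −0.18 ± 0.20 and 0.21 ± 0.20. In S1 it stood at 18999 in the 5-day air library and at 7161 to 8008 in that animal's other 5 libraries, and without the former the 5-day difference was 0.17. GSTA1 differed by 0.07 ± 0.14, 0.01 ± 0.14 and 0.21 ± 0.14.

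Among the conjugating enzymes of the other families, UGT1A1, which glucuronidates bilirubin, phenols and hydroxylated aromatic hydrocarbons, was higher in smoke than in air at 5 days. Its normalized counts were 1229.6, 697, 1199 and 853 in air and 1397, 835, 1355 and 1010.3 in smoke at 1 day. At 5 days they were 400.2, 516, 885 and 538 in air and 945, 850.5, 977 and 912 in smoke. After recovery they were 921, 715, 1121 and 1027 in air and 689.6, 589.9, 913 and 492 in smoke. Smoke was higher in each animal at 1 day and 5 days and lower in each animal after recovery. At 5 days the 4 smoke values lay close together and the S3 air value overlapped them. From 1 day to 5 days UGT1A1 fell in each animal in air, and in S1, S3 and S4 in smoke. The 5-day difference was 0.72 ± 0.17 (adjusted p = 0.0349), 1.64-fold higher in smoke, and 0.50 without the S1 air library of 5 days (adjusted p = 0.0247). The 1-day and recovery differences were 0.22 ± 0.17 and −0.51 ± 0.17 (adjusted p = 1 and 0.102), the latter called without that library (adjusted p = 0.00514). The 5-day call was lost without the 5-day air library of S4 or any 5-day smoke library (adjusted p up to 0.105), and without the animal term (adjusted p = 0.331). Reads of UGT1A1 can be shared with other UGT1A genes, which splice different first exons to common ones, and the labels do not say how the counting split them; the same holds for near-identical copies among the CYP2A, CYP2C, GSTA, GSTM and AKR1C genes.

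SULT2B1, which sulfates cholesterol and other sterols, was a low-level gene with 31.6, 17.8, 18.3 and 29.8 in air and 8.94, 12.8, 16.0 and 11.5 in smoke after recovery. The groups did not overlap, and the difference of −0.91 ± 0.31 was called without the S1 air library of 5 days (adjusted p = 0.0192) and not with it (adjusted p = 0.123). At 5 days its difference was −0.43 ± 0.31, and −0.06 without that library, in which SULT2B1 stood at 41.6. SULT1C4 was listed at 0 in every library of S2.

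**Figure D2:**
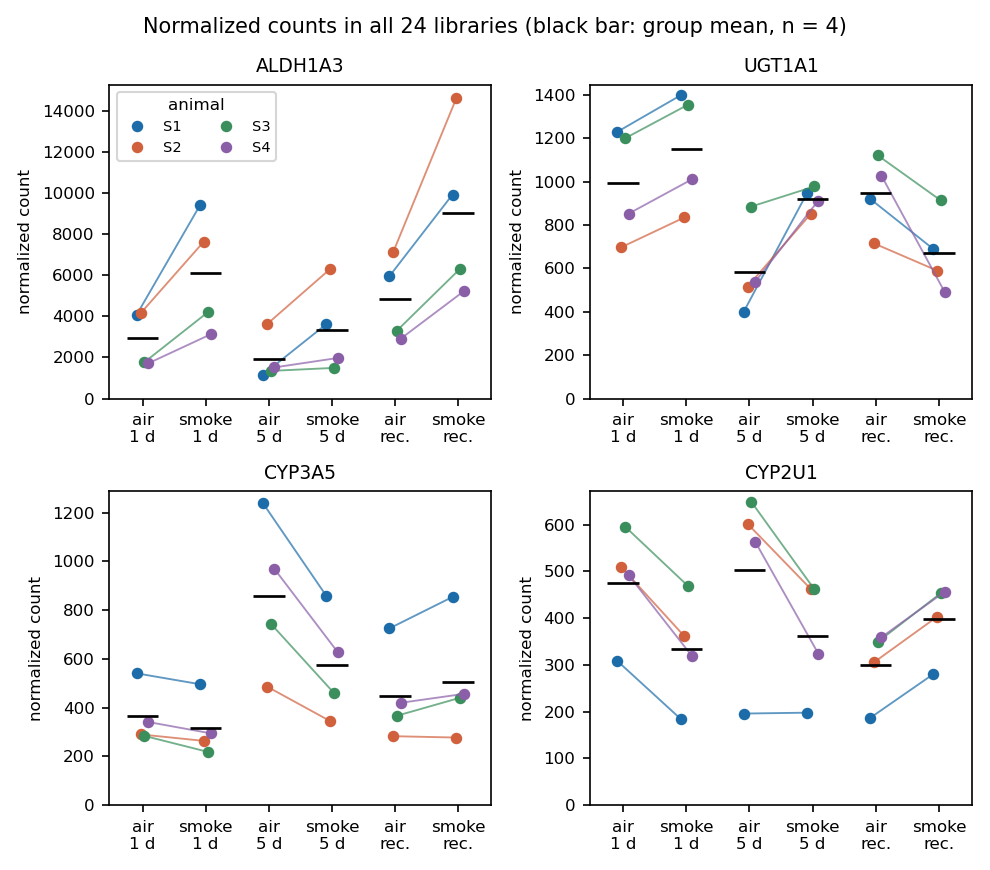
Normalized counts of ALDH1A3, UGT1A1, CYP3A5 and CYP2U1 (vertical axes) in all 24 libraries by group; a line joins the air and smoke library of an animal, and black bars are group means (n = 4). ALDH1A3 lines rise at all 3 times; UGT1A1 lines rise at 1 day and 5 days and fall after recovery; CYP3A5 lines fall at 5 days; CYP2U1 lines fall at 1 day and rise after recovery.

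A further contrast compared the smoke difference itself at neighbouring times. From 1 day to 5 days 0 of 57 members passed, beside 0.0427% of all genes (0, beside 0.306%, without the S1 air library of 5 days). From 5 days to recovery 3 passed, beside 3.56% of all genes: UGT1A1 at −1.23 ± 0.24 (adjusted p = 0.00709), CYP2U1 at 0.84 ± 0.21 (adjusted p = 0.0324) and CYP3A5 at 0.73 ± 0.19 (adjusted p = 0.0347). This contrast tests a change in the difference and not a change of its sign. In the fitted means the difference went from positive to negative for UGT1A1 and the other way for CYP2U1 and CYP3A5. With all libraries none of these genes was called for smoke after recovery. In UGT1A1 this sign change was seen in 4 of 4 animals and in the others in 3 of 4: the S1 difference of CYP2U1 was already near 0 at 5 days, and the S2 difference of CYP3A5 stayed negative after recovery. Without the S1 air library of 5 days the 3 differences were −1.02, 1.03 and 0.77, all called, and 6 members passed beside 11.3% of all genes. The UGT1A1 call stood on leaving out any 1 library and was lost on leaving out S2 or S4 (adjusted p up to 0.183); that of CYP2U1 stood in 15 of 24 such omissions and that of CYP3A5 in 14 of 24. Without the animal term none of the 3 passed (adjusted p = 0.117, 0.554 and 0.624), beside 0.348% of all genes.

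More of these enzymes were called between times within filtered air than between smoke and air. The times differ in days of culture, number of air sessions and days of recovery, which cannot be told apart. Between 1 day and 5 days of air 15 of 57 members were called, 7 higher and 8 lower, beside 19.4% of all genes (9.88% higher and 9.52% lower). Between 5 days and recovery 22 were called, 5 higher and 17 lower, beside 28.4% of all genes (14.2% higher and 14.1% lower). Both contrasts use the 4 air libraries of 5 days, 1 of which stood apart. The smoke difference at 5 days uses them too. The air and 5-day smoke results of a gene, such as CYP3A5 or UGT1A1, are therefore not independent. Without the S1 air library of 5 days, 14 and 22 members were called, beside 18.6 and 27.1% of all genes. Without the animal term 2 and 4 were called, beside 3.98 and 11.3%. Scaling by library totals moved the median of all genes by −0.15 in the first contrast (and by 0.16 in the change of the smoke difference from 1 day to 5 days) and gave 5 higher and 13 lower, and gave 6 higher and 12 lower in the second.

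CYP3A5 had the largest rise in air from 1 day to 5 days among the called members. Its mean normalized count was 364 ± 121 at 1 day, 859.9 ± 320.3 at 5 days and 449 ± 193 after recovery (SD, n = 4). The difference was 1.21 ± 0.13 up to 5 days (adjusted p = 3.59e-05) and −0.95 ± 0.13 from there to recovery (adjusted p = 7.91e-05), with every animal moving alike and both calls standing on leaving out any 1 animal. UGT1A1 went the other way, at 995 ± 262, 585 ± 209 and 946 ± 174, with differences of −0.79 ± 0.17 and 0.74 ± 0.17 (adjusted p = 0.00466 and 0.00419). Without the S1 air library of 5 days its first-interval difference was −0.58, still called (adjusted p = 0.00405). CYP2J2, the epoxygenase of arachidonic acid in lung, fell from 491 ± 37.3 to 358 ± 10.9 in the first interval, with a difference of −0.45 ± 0.09 (adjusted p = 0.0031). CYP2D6, a drug hydroxylase, fell by 0.79 ± 0.19 there, and ALDH4A1, of proline breakdown, with a difference of −0.49 ± 0.14.

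With all libraries, the members with a GST symbol were mostly high in air at 5 days. From 1 day to 5 days 11 of 12 had a positive difference (10 with library totals as the scaling), and the median of all genes was 0.00. Called higher were 4, beside 9.88% of all genes, and called lower 1, beside 9.52%. Without the S1 air library of 5 days GSTZ1 turned from 0.02 to −0.23. Leaving it out also took GSTP1 from 0.40 to 0.05, GSTM4 from 0.28 to 0.09, GSTT2B from 0.33 to 0.08 and GSTA1 from 0.36 to 0.19. The 1 called lower was GSTCD, at −0.83 ± 0.28. Without the S1 air library of 5 days it was −0.33 and uncalled (adjusted p = 0.0596). From 5 days to recovery 10 of 12 had a negative difference under both scalings. Of the 12, 6 were called lower and 1 higher, beside 14.1 and 14.2% of all genes. GSTK1 averaged 884 ± 93.1, 1336 ± 344 and 855 ± 97.9 at the 3 times, with differences of 0.57 ± 0.13 and −0.62 ± 0.13. GSTO1, an omega-class thioltransferase, averaged 368 ± 48.5, 729 ± 357 and 418 ± 51.7, with differences of 0.88 ± 0.20 and −0.69 ± 0.20. GSTM3 averaged 203 ± 58.2, 378 ± 224 and 151 ± 73.9, with differences of 0.76 ± 0.20 and −1.28 ± 0.20. In each of these 3 genes S1 was the highest library at 5 days, and without it the first-interval difference was 0.37, 0.54 and 0.53, all still called; the second-interval difference was then −0.41, −0.35 and −1.05. GSTA4 rose by 0.39 ± 0.11 in the first interval, a call that library totals as the scaling ended (adjusted p = 0.137), and GSTA1 fell by 0.50 ± 0.14 in the second, a difference of −0.33 without the S1 air library of 5 days and uncalled without the S2 air library of recovery (adjusted p = 0.0672). Over the first interval 5 of 10 basal markers were called lower and 2 of 16 secretory markers higher and 1 lower; the summed basal markers were 64282 to 79454 in air at 1 day and 40894 to 59657 at 5 days, groups that did not overlap. Their part in the transferase differences was not tested.

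In the second interval the retinal dehydrogenases parted. ALDH1A3 rose in air from 1913 ± 1147 at 5 days to 4829.7 ± 2045 after recovery, by 1.39 ± 0.23 (adjusted p = 0.000321). The rise was largest in S1, whose 5-day air library stood apart, from 1169 to 5959. In S2 it was from 3619.9 to 7133, in S3 from 1346 to 3309.6 and in S4 from 1516 to 2917. ALDH1A1 fell from 25861 ± 9914 to 18447 ± 4994, with a difference of −0.45 ± 0.15 (adjusted p = 0.0276). With library totals as the scaling the ALDH1A1 call was lost (adjusted p = 0.0883). Of the 8 AKR genes 2 had a positive difference (3 with library totals as the scaling), and 4 were called lower, beside 14.1% of all genes. Among the 4 was AKR1B1, the polyol pathway's aldose reductase, with a difference of −0.72 ± 0.15. It went from 1132 to 516 in S1, 676 to 384 in S2, 1149 to 739 in S3 and 1262 to 1018 in S4. Another was AKR7A2, with a difference of −0.56 ± 0.16 (−0.29 without the S1 air library of 5 days). AKR1A1, the aldehyde reductase, rose in the first interval by 0.55 ± 0.16, and by 0.27 without the S1 library, in which it stood at 3506. CYP2U1 fell in the second interval, with a difference of −0.65 ± 0.15 and CYP20A1, an orphan P450, rose by 0.48 ± 0.14 in 3 of 4 animals. Over the same interval 7 of 10 basal markers were called higher and 8 of 16 secretory markers lower, with list medians of 0.69 and −0.82; their part in these differences was not tested.

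**Figure D3:**
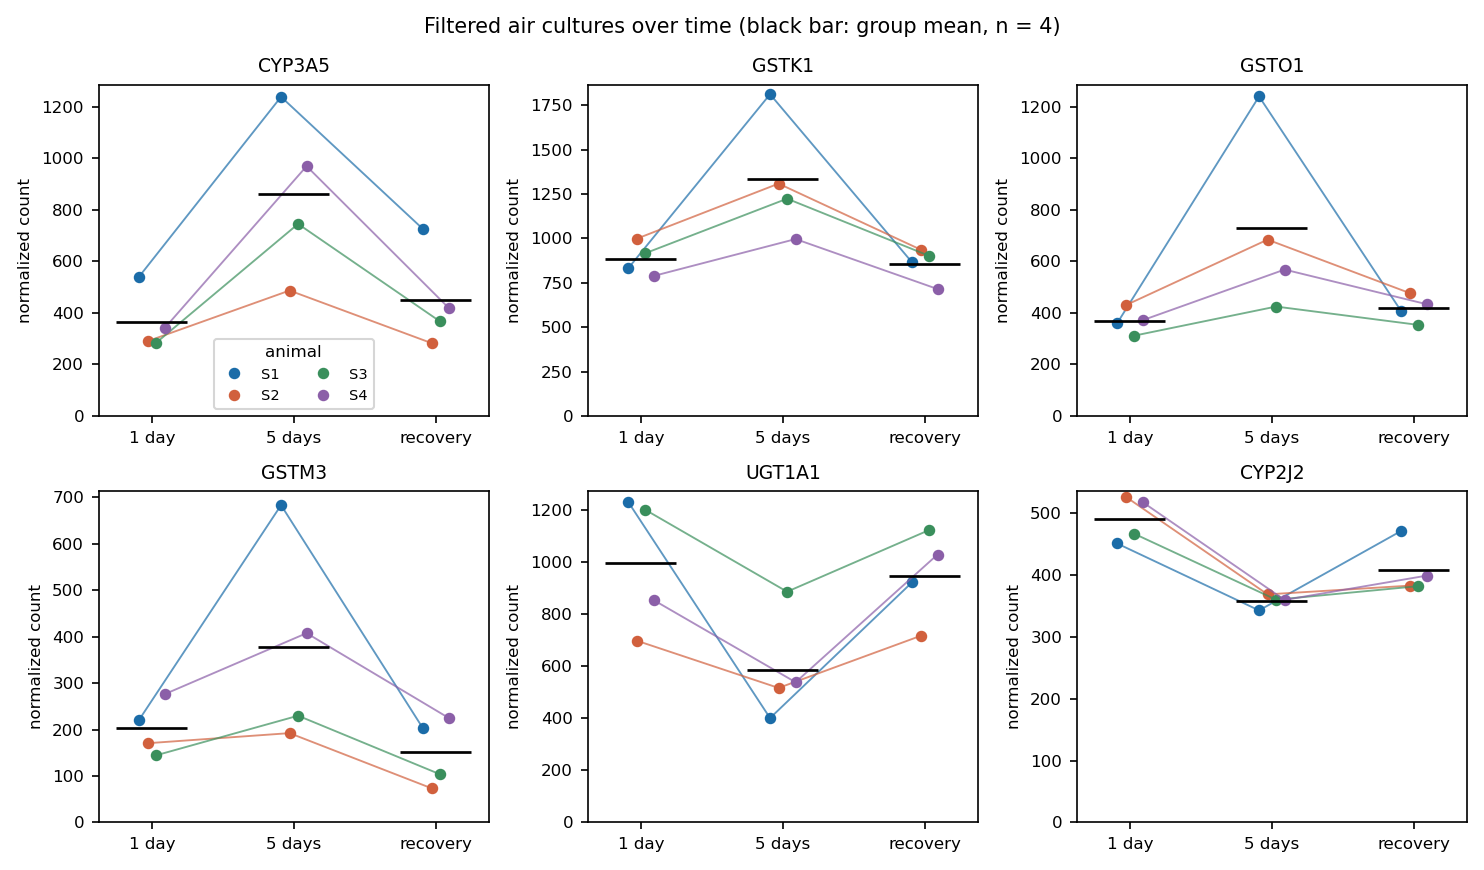
Normalized counts (vertical axes) of 6 members in the filtered air cultures at 1 day, 5 days and recovery; lines join the libraries of an animal and black bars are group means (n = 4). CYP3A5, GSTK1, GSTO1 and GSTM3 peak at 5 days in all 4 animals, UGT1A1 dips at 5 days in all 4, and CYP2J2 falls between 1 day and 5 days; S1 is far above the others at 5 days for GSTO1 and GSTM3.

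The animals differed more than the treatments. Of the 57 members 49 were called between the 4 animals by limma's moderated F test, beside 50.4% of all genes (52, beside 68.5%, without the S1 air library of 5 days). The fitted range over animals had a median of 0.936 on the log2 scale for the members and 0.477 for all genes. A range over 2 was found in 10 members, 17.5%, against 6.59% of all genes. SULT1C4, with a range of 2.84, is among these 10 and the 49 called. It passed the filter only through S1 libraries, so its place among them was set by its selection. Split into shares of the sum of squares, the animal took a median of 53.8% of a member's variation, time 10.7% and smoke within times 4.73%. In all genes these medians were 27.1, 18.4 and 8.84%. The animal share had a median of 73.6% in CYP families 1 to 4, 63.2% in AKR, 57.8% in ALDH, 35.6% in GST and 26.0% in UGT. The test compares 4 cell isolates, and marker sums moved with the animal: the median secretory sum was 164126 in S1, 39760 in S2, 49507 in S3 and 64876 in S4, and the ciliated sum 9775, 14113, 33712 and 20383. Among the genes tested 15 of 16 secretory and 13 of 13 ciliated markers were called between animals; their part in the enzyme differences was not tested.

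**Figure D4:**
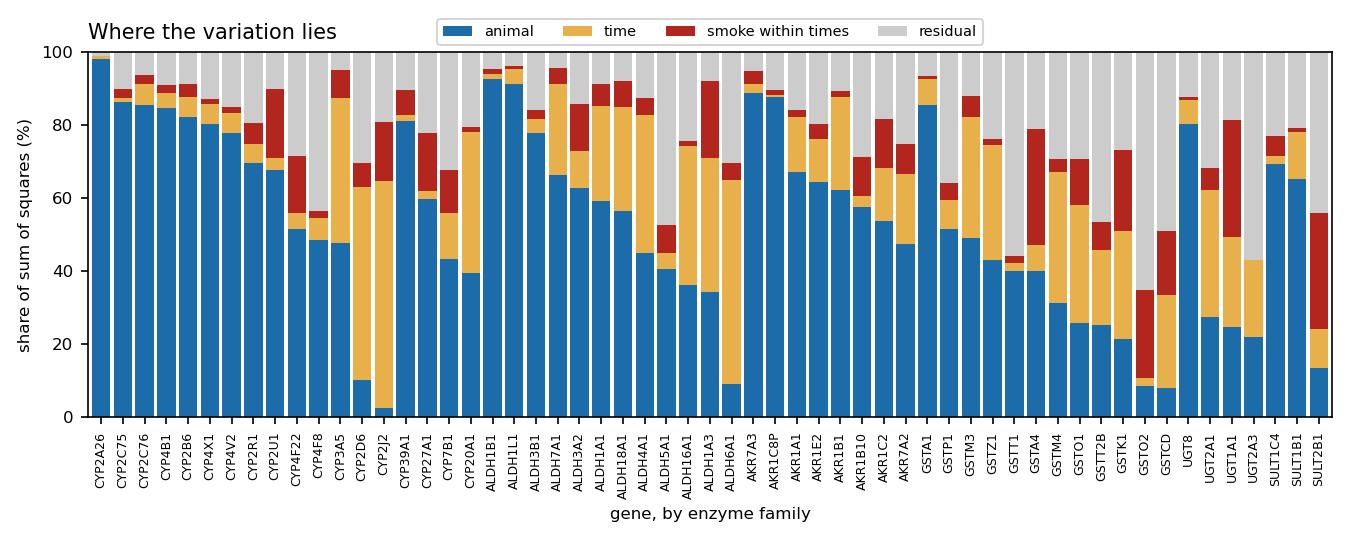
Share of each member's total sum of squares (vertical axis, percent, on log2 values) that lies between animals, between times, between smoke and air within times, and in the residual, with members ordered by family and animal share. The animal takes over 50% in 31 of 57 members, most of all in CYP2A26 and ALDH1B1, while CYP2J2, CYP2D6 and ALDH6A1 vary mainly with time.

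CYP2A26, a CYP2A gene of the macaque, was the 1 member whose 4 animals did not overlap at all (0.0853% of all genes have this). Over 6 libraries each it read 3.34 to 6.57 in S2, 65.9 to 192 in S4, 308 to 481 in S3 and 533 to 726 in S1, a fitted range of 6.57 on the log2 scale (adjusted p = 4.02e-15). S2 was thus near the floor whatever the treatment or time. The highest animal lay apart from the other 3 in 8 members (background 4.84%): CYP2A26, CYP2B6, CYP4B1, ALDH1L1, ALDH3B1, ALDH5A1, AKR1A1 and AKR7A3. The lowest lay apart in 9 (background 2.42%): CYP2A26, CYP2C75, CYP2C76, CYP4X1, ALDH1A1, ALDH1B1, AKR1A1, AKR1C8P and GSTA1.

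CYP2B6, which activates many drugs and procarcinogens, ranged over 93.1 to 402 in S1, 10.8 to 33.1 in S2, 29.8 to 50.7 in S3 and 19.5 to 65.1 in S4. CYP4B1 was highest in S3, at 4545 to 5964, with 2717 to 3844 in S4, 1754 to 2493 in S1 and 1160.3 to 2472 in S2. CYP2C76, a CYP2C form of macaques with no human ortholog, was lowest in S2, at 93.7 to 163, against 307 to 488 in S1, the highest. By median S2 was thus lowest in CYP2A26, CYP2B6 and CYP2C76, and S1 and S2 overlapped in CYP4B1.

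ALDH1B1, a mitochondrial acetaldehyde dehydrogenase, read 0 to 4.59 in S2, 10.6 to 17.8 in S1, 18.2 to 42.0 in S3 and 27.8 to 51.8 in S4. ALDH1L1, the cytosolic formyltetrahydrofolate dehydrogenase, read 50.4 to 90.5 in S4, 86.7 to 213 in S2, 152 to 248 in S1 and 359 to 566 in S3, so that S3 alone lay apart from the others. GSTA1, the main alpha-class transferase, read 4516 to 8676 in S2, 11545 to 16559.8 in S3, 11541 to 24177 in S1 and 18146 to 23644 in S4. AKR7A3 was the reverse case, lowest in S1 at 13.0 to 33.6 and highest in S2 at 79.2 to 111. The fitted log2 ranges of ALDH1B1, ALDH1L1, GSTA1 and AKR7A3 were 4.28, 2.74, 1.66 and 2.17. By animal medians 22 members, SULT1C4 among them, were highest in S1, 9 in S2, 17 in S3 and 9 in S4. Each animal was thus the highest for some of the enzymes.

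**Figure D5:**
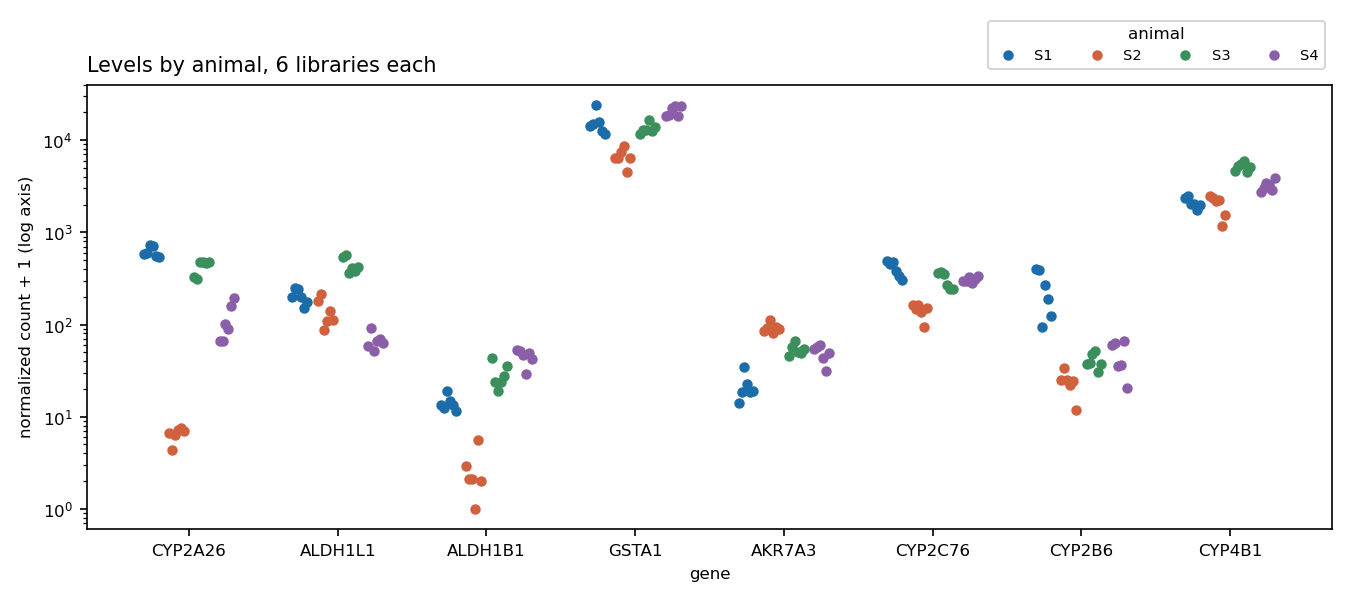
Normalized counts + 1 (log axis) of the 8 members with the smallest p between animals, 6 libraries per animal and gene in a colour per animal. The 6 libraries of an animal lie close together for CYP2A26, whose 4 animals do not overlap, and S2 is lowest for CYP2A26, ALDH1B1, GSTA1 and CYP2C76.

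The rest of the pathway was read from 4 lists of other phase I enzymes, other phase II enzymes and cofactor suppliers, export and uptake carriers, and nuclear regulators. For smoke, 0.0782, 1.69 and 3.41% of all genes were called at 1 day, 5 days and recovery. Of the lists, 0 of 26 phase I and 0 of 17 phase II genes tested were called at any time. Of 12 carriers 1 was called at 5 days, the prostaglandin carrier SLCO2A1 at 0.86 ± 0.20 (adjusted p = 0.0349), and 1 after recovery, SLCO3A1 at −1.06 ± 0.17 (adjusted p = 0.00258). Of 16 regulators the retinoic acid receptor RARG was lower in smoke at 5 days, with a difference of −0.33 ± 0.08 (adjusted p = 0.0389). After recovery the vitamin D receptor VDR was lower in smoke by 0.88 ± 0.18 (adjusted p = 0.00978). RARB, itself a retinoic acid target, was also lower then, with a difference of −1.35 ± 0.32 (adjusted p = 0.0255). These 5 calls stood without the S1 air library of 5 days, and none stood without the animal term (lowest adjusted p = 0.0984). SLCO3A1 averaged 91.2 ± 11.8 in air and 44.5 ± 14.5 in smoke after recovery, and RARB 838 ± 163 and 328 ± 64.1 (SD, n = 4). Without the S1 air library of 5 days 5 of 17 phase II genes were called higher and 1 lower after recovery, and 6 of 16 regulators lower. In that fit 18.8% of all genes were called.

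In filtered air the lists were again read against the share of all genes called, 19.4% from 1 day to 5 days and 28.4% from there to recovery. From 1 day to 5 days 4 of 26 other phase I genes rose and 2 fell, among them the P450 electron donors POR at 0.40 ± 0.10 and CYB5A at 0.77 ± 0.16, the retinol dehydrogenase DHRS9 at 0.76 ± 0.09, the carboxylesterase CES2 at −0.75 ± 0.21 and xanthine dehydrogenase XDH at −0.91 ± 0.20. Of 17 other phase II genes 1 fell, of 12 carriers 2 fell, and of 16 regulators 3 rose and 2 fell. From 5 days to recovery 7 phase I genes fell and 1 rose, with the microsomal epoxide hydrolase EPHX1 at −0.84 ± 0.11, CES1 at −1.12 ± 0.20 and the flavin monooxygenase FMO2 at −0.78 ± 0.15. Among phase II genes 5 fell and 2 rose, with GCLM, the modifier subunit of glutathione synthesis, at 0.62 ± 0.07, UGDH, which makes the glucuronic acid donor, at −0.63 ± 0.12, and histamine methyltransferase HNMT at −0.75 ± 0.16. No carrier was called in that interval, and of the regulators 5 rose and 4 fell, with RARB at 1.65 ± 0.32 and VDR at 0.88 ± 0.18. The RARB and VDR differences in smoke after recovery use the same air libraries of recovery, so they are not independent of these. Between animals 22 of 26 phase I, 13 of 17 phase II, 9 of 12 carrier and 6 of 16 regulator genes were called, beside 50.4% of all genes.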

How the data were processed

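RNA of 24 cultures was sequenced as poly-A libraries, per the labels' protocols; FastQC, Trim Galore, Bowtie2 and RSEM are listed per the submitters' processing notes, and no version, genome build, annotation or strand setting is given in the sources used here. The deposited table, named as raw counts, holds a normalized signal for each gene: the values are not whole, and 78.5 to 83.3% of low values per library are whole multiples, within 0.1, of a step of 0.727 to 1.61 that is specific to the library, so whole reads were not recovered. Dividing totals by that step gave the approximate depths. The spread of libraries around the fitted group means and animal terms stands in for counting error.

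Members were matched by the table's symbols. Every gene that reached 10 in 4 or more libraries was tested on log2(value + 1) with limma 3.58.1 in R 4.3.3 (trend, two-sided), with 6 group means and the animal as a block, in 8 contrasts and an F test between animals, tested on simulated data first. The labels give 1 animal ID to 6 libraries, and deviations from group means correlated at 0.303 to 0.804 within animals (60 pairs) and −0.443 to 0.0149 between them (180 pairs). Taking deviations from means of 4 animals pushes the correlations between animals below 0 by itself. A count test, foreseen in case of whole counts, was not run, as the values are not whole. Members, lists and tests were chosen with earlier results of these data known. Named genes were members called in a contrast (at most 10 by p), the 8 with the smallest p between animals, the smallest p of each family per smoke comparison, 14 genes always given, and called genes of the 4 pathway lists (at most 5 a contrast); genes given outside it were picked after their values were seen. Besides those given in the report, the marker lists of squamous, ionocyte, neuroendocrine, fibroblast, immune and endothelial cells had 7, 2, 0, 4, 3 and 4 genes tested; for smoke against air only 2 squamous genes were called, lower after recovery (1 for the later change). In air, 1 squamous and 1 fibroblast gene fell and 1 immune and 1 endothelial gene rose up to 5 days, and 3 squamous genes rose and 1 ionocyte, 2 immune and 1 endothelial gene fell afterwards. Alternatives were no block, a pseudocount of 5, a filter of 12 libraries, no filter, library totals, the libraries of 1 time, and leaving out each animal or library.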

Additional observations from a re-analysis of the deposited data

Results flagged for a closer look

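In 192 sets of 4 libraries (the 32 members named by the rules above, 6 groups), 13 held a library that lay far from the other 3, its gap to the nearest, as a share of the set's range, exceeding Dixon's critical value. Chance alone picks about 1 in 20 sets. Members given in the report outside those rules were not screened. In the S1 air library of 5 days these were AKR1A1 at 3506 (others 839 to 1287), AKR1C2 at 667 (246 to 306), SULT2B1 at 41.6 (12.5 to 16.5) and SULT1C4 at 14.7 (others listed at 0). S1 was also far above the rest for CYP2B6, at 402 in air and 388 in smoke at 1 day and at 267 in smoke at 5 days, where the others reached at most 58.9, 62.6 and 50.7, and for SULT1C4 in smoke after recovery, at 11.1. SULT1C4 passed the filter only through S1 libraries, so its high values there were part of its selection. S2 stood at 3619.9 for ALDH1A3 in air at 5 days, against 1169 to 1516, and at 17.1 for SULT2B1 in smoke at 1 day, the low value of its group. S4 was high for ALDH3A2, at 2815 in smoke at 5 days and 2906.5 in air after recovery, and S3 for CYP4B1 in air at 1 day, at 4633. The smoke difference changed between 5 days and recovery in 3 members by the test of that change: UGT1A1 by −1.23, CYP2U1 by 0.84 and CYP3A5 by 0.73 on the log2 scale.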

How the results depend on the processing

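Counts of members called were the same as the main ones with a pseudocount of 5 and, apart from 47 for 49 between animals, with a filter of 12 libraries (22 for air from 5 days to recovery, 15 for air from 1 day to 5 days, 3 for the change of the smoke difference from 5 days to recovery, 3 for the mean of both exposure times, 1 after recovery, 0 at 1 day and 2 at 5 days). With no replicate block, the counts for smoke at 1 day, 5 days and recovery, their mean and the later change were 0 each, and air gave 2 and 4 in its 2 intervals; the same fit without the S1 air library of 5 days, added after the data were seen, gave 0 for each smoke contrast and 1 and 3 for air. No smoke contrast thus had a called member without pairing by animal. Library totals gave 0 after recovery and 1 for the mean, and testing all genes with no filter gave 1 at 5 days and 0 after recovery. The 8 libraries of a time alone gave 12 at 1 day, 0 at 5 days and 11 after recovery. The causes of these shifts were not tested. Leaving out 1 animal or library gave 0 to 4 members at 1 day, 0 to 7 at 5 days, 0 to 10 after recovery, 0 to 9 for the mean, 0 to 6 for the later change, 6 to 20 and 9 to 26 in the air intervals, and 40 to 52 between animals; smoke calls at single times fell to 0 on leaving out S2, S3 or S4. Of 47 results for named genes 1 changed sign: SULT2B1 at 5 days was −0.43 with all libraries, 0.0616 without S1 and ranged from −0.69 to 0.0616 over such omissions, never called. Uncalled members outside those 47 turned too, such as GSTP1 at 5 days (−0.18, and 0.17 without the S1 air library of 5 days). Low members such as SULT1C4 and SULT2B1 rest on few reads, and with 4 animals a group a missed threshold does not show equal levels.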
